A study of Saccharomyces cerevisiae with 24 samples.

Results

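The genes described here are 10 genes of trehalose and glycogen metabolism in budding yeast, TPS1, TPS2, TPS3, TSL1, NTH1, GSY1, GSY2, GLC3, GAC1 and GPH1. The rule lists them by name and uses no measured value, although earlier results of these data were known when the list was made, and they were found on the arrays through their systematic names. They are 10 of the 6576 names on the array, and all 10 were among the 6209 genes kept after the filter on dim probes.

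Yeast stores glucose in 2 forms, the disaccharide trehalose and the branched polymer glycogen. Trehalose is made from UDP-glucose and glucose 6-phosphate by a protein complex and is split by trehalases, while glycogen is built by glycogen synthases and a branching enzyme and broken down by glycogen phosphorylase. Both stores are known to build up in slowly growing or stressed yeast, and many of these genes are controlled by the stress transcription factors Msn2 and Msn4 and repressed through protein kinase A. Transcript levels alone do not give enzyme activity, since several of these enzymes are also switched by phosphorylation.

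All cells were of strain W303, mating type a, and lacked the chromosomal IRE1 gene, which encodes a stress sensor in the membrane of the endoplasmic reticulum (ER). In its place they carried either IRE1 (IRE1 cells) or ire1ΔLD, a form named for the loss of its lumenal domain (ΔLD cells). Each of these was measured in 4 states, giving 8 groups of 3 arrays: untreated, 1 hour in 2 mM dithiothreitol (DTT), Δopi3, and Δopi3 with 1 mM choline overnight. DTT reduces disulfide bonds and disturbs protein folding in the ER, and OPI3 is needed for methylation steps that make phosphatidylcholine, which cells can also make from supplied choline. The series sets these against each other as protein stress and lipid stress. Total RNA was labelled with a single dye, and the labels used here do not give the promoter or copy number of the IRE1 forms, nor say whether the 3 replicates were separate cultures, so p-values measure the spread between these arrays.

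A level below is the log2 processed signal of a gene's probe minus the array's 75th percentile, and a change is a difference of group means on that scale (1 is 2-fold). "Called" means an adjusted p under 0.05 in limma over 6209 genes, ± after a change is its standard error, and ± after a level is the SD over 3 arrays. Shares of all genes called come from the fit of all 24 arrays on the 75th-percentile scale unless another is named. Counts from other fits or scales cannot be read against those shares. Each gene had a single probe of 9 or 10 spots, was well above background on all 24 arrays and had no saturated spot. Levels of different probes were not set against each other, except for the mating type markers below. Each array averages a whole culture, so a change per cell and a change in the share of cells that express a gene cannot be told apart.

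The labels were checked first. On the 12 arrays labelled Δopi3, OPI3 signal was below background on 7. It was 31.0% of the untreated mean on replicate 3 and 0.751% on replicate 2 of the IRE1 Δopi3 group, 23.2% and 1.53% on the same replicates of the ΔLD Δopi3 group, and 11.3% on replicate 3 of the IRE1 group with choline. On those 5 arrays the signal went against the label, so "Δopi3" below means labelled so, and results that rest on them are also given without the 3 arrays above 10%. The IRE1 probe read -2.59 to -1.58 on the 12 arrays of IRE1 cells and -0.20 to 0.69 on those of ΔLD cells, without overlap. Within ΔLD cells it also differed between states, at -0.20 to 0.10 untreated and 0.64 to 0.69 on Δopi3 arrays without choline. On DTT arrays, OPI3 signal was 40.0% to 48.7% of the untreated mean in ΔLD cells and 90.7% to 94.5% in IRE1 cells. All 5 markers of mating type a (STE2, MFA1, MFA2, STE6, BAR1) were above background on all 24 arrays. Of markers of the opposite mating type, SAG1 and STE3 were above background on all 24, MFALPHA1 on 12 and MFALPHA2 on 4. These opposite-type markers read between -9.02 and -2.11, and the 5 markers of type a between -1.62 and 1.89. The 75th percentile of signal ran from 6951 to 15890, with 90.6% to 95.8% of spots well above background. Broad responses were the rule in this series, and scaling matters for DTT. With arrays scaled to their E1A spike-in controls, the median of all genes under DTT stood at 0.86 in IRE1 cells and 0.40 in ΔLD cells, against 0.07 and 0.08 with the 75th percentile. The genes called higher were then 4591 of 4711 called in IRE1 cells (2444 of 4315 with the 75th percentile) and 2476 of 2989 in ΔLD cells (2368 of 4124). For Δopi3 the same split moved to 1349 of 1865 in IRE1 cells (1997 of 4177) and 747 of 1152 in ΔLD cells (1811 of 3507).

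**Figure D1:**
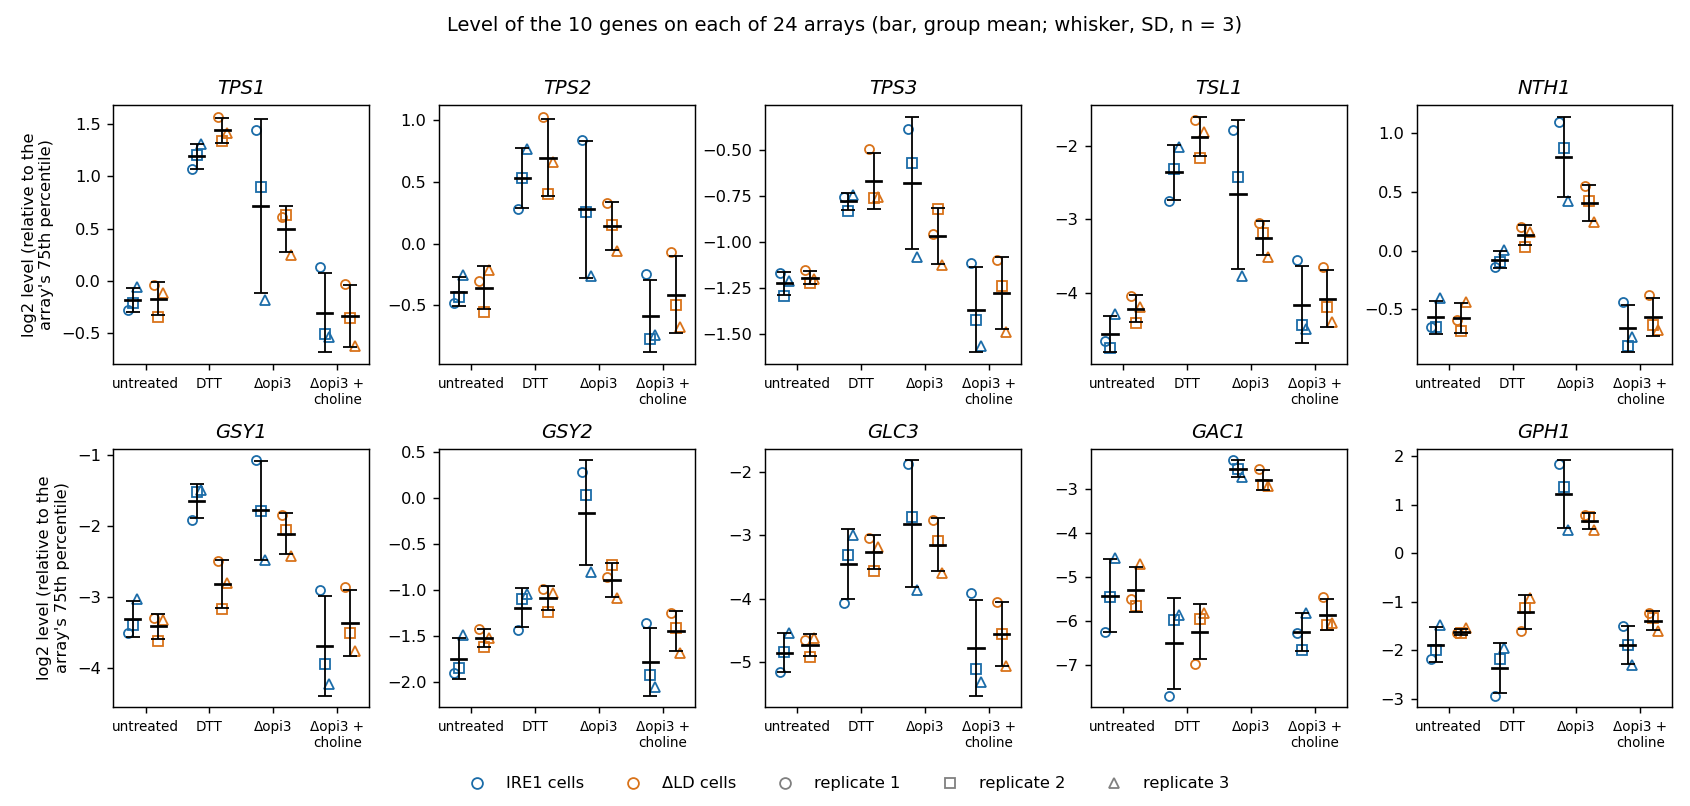
Levels of the 10 genes on each of 24 arrays (y axis, log2 signal relative to the array's 75th percentile; x axis, the 4 states; blue, IRE1 cells; orange, ΔLD cells; symbol shape, replicate), with group means and SD over 3 arrays. TPS1, TPS2, TPS3 and TSL1 have their highest mean in DTT-treated ΔLD cells, while NTH1, GSY2, GLC3, GAC1 and GPH1 have theirs in Δopi3 IRE1 cells. Except for TPS1, arrays of the highest group overlap those of the next.

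The plot of levels by array shows that the highest mean of a gene fell in one of 3 groups. It lay in DTT-treated ΔLD cells for 4 genes, in Δopi3 IRE1 cells for 5, and in DTT-treated IRE1 cells for GSY1. Arrays of the highest group overlapped those of the next group for every gene but TPS1, and for TPS3 these means differed by 0.009. The lowest mean lay in IRE1 Δopi3 cells with choline for 5 genes in DTT-treated IRE1 cells for GAC1 and GPH1, in untreated IRE1 cells for TSL1 and GLC3, and in ΔLD Δopi3 cells with choline for TPS1. Between the highest and lowest group means, GAC1 spanned 3.97, GPH1 3.58 and TPS3 0.70 on the log2 scale.

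DTT raised the trehalose synthesis genes in both strains and, on the 75th-percentile scale, left the glycogen phosphorylase gene without a called change (with E1A scaling it was called higher in ΔLD cells). In IRE1 cells 8 of the 10 genes were called higher, against 39.4% of all genes, and 1 was called lower, against 30.1%. In ΔLD cells 6 were called higher, against 38.1%, and none lower, against 28.3%. The median change of the 10 genes was 0.74 in IRE1 cells and 0.65 in ΔLD cells, beside 0.07 and 0.08 for all genes tested.

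TPS1, which encodes trehalose 6-phosphate synthase, had levels of -0.28, -0.22 and -0.06 on the untreated IRE1 arrays and 1.07, 1.20 and 1.31 after DTT. In ΔLD cells the untreated arrays read -0.05, -0.35 and -0.12 and the DTT arrays 1.57, 1.34 and 1.42. Every DTT array lay above every untreated array in both strains. The change was 1.38 ± 0.27 (2.60-fold, adjusted p = 0.000178) in IRE1 cells and 1.61 ± 0.27 (3.06-fold, adjusted p = 3.90e-05) in ΔLD cells. TPS2, the phosphatase that completes trehalose synthesis, rose by 0.92 ± 0.23 (adjusted p = 0.00151) and 1.06 ± 0.23 (adjusted p = 0.000472).

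TSL1, which encodes a regulatory subunit of the complex, had the largest DTT change of the 10 genes in both strains. Its levels were -4.66, -4.76 and -4.29 on untreated IRE1 arrays and -2.75, -2.31 and -2.01 with DTT, and in ΔLD cells they went from -4.05, -4.42 and -4.19 to -1.64, -2.17 and -1.80. Again no arrays overlapped, and the change was 2.21 ± 0.36 (4.62-fold, adjusted p = 2.28e-05) and 2.35 ± 0.36 (5.09-fold, adjusted p = 1.36e-05). The other regulatory subunit, TPS3, rose by 0.44 ± 0.14 (adjusted p = 0.00959) and 0.52 ± 0.14 (adjusted p = 0.00335), which is 1.36- and 1.44-fold. Scaled to E1A controls, all 4 genes of trehalose synthesis were called higher in both strains. With that scaling 4591 of all 6209 genes were called higher in IRE1 cells and 2476 in ΔLD cells.

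NTH1 encodes neutral trehalase, which splits trehalose, and it also rose with DTT. The changes were 0.49 ± 0.14 (adjusted p = 0.00405) in IRE1 cells and 0.70 ± 0.14 (adjusted p = 0.000192) in ΔLD cells. Its paralog NTH2 changed by 0.24 (adjusted p = 0.197) in IRE1 cells and rose by 0.44 (adjusted p = 0.0209) in ΔLD cells. On Δopi3 arrays NTH2 changed by 0.24 and 0.23 without a call, and with choline by -0.49 (adjusted p = 0.0105) in IRE1 cells and -0.38 (adjusted p = 0.0510) in ΔLD cells. The NTH2 call with DTT was lost without any 1 of 3 of 6 arrays (adjusted p up to 0.0745), and that with choline without replicate 1 of the IRE1 Δopi3 group (-0.30, adjusted p = 0.0960) or replicate 2 of the choline group (-0.39, adjusted p = 0.0597).

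Among the glycogen genes the DTT response differed from gene to gene. GLC3, the branching enzyme, rose by 1.39 ± 0.42 (adjusted p = 0.00635) in IRE1 cells and 1.48 ± 0.42 (adjusted p = 0.00450) in ΔLD cells. GSY1, a glycogen synthase, went from -3.51, -3.40 and -3.03 to -1.92, -1.52 and -1.49 in IRE1 cells, a rise of 1.67 ± 0.33 (3.19-fold, adjusted p = 0.000189). In ΔLD cells it went from -3.31, -3.62 and -3.32 to -2.50, -3.17 and -2.80, a change of 0.59 ± 0.33 that was not called (adjusted p = 0.123; called at 0.91, adjusted p = 0.00968, with E1A scaling). GSY2, the main glycogen synthase, rose by 0.55 ± 0.22 in IRE1 cells (adjusted p = 0.0303) and changed by 0.43 ± 0.22 in ΔLD cells (adjusted p = 0.0889). The GSY2 call in IRE1 cells was lost when any of 4 single arrays was left out (replicates 1 and 2 untreated, replicates 2 and 3 with DTT), with adjusted p from 0.0844 to 0.0995.

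GAC1 and GPH1 did not share the rise. GAC1 encodes a subunit that directs the phosphatase Glc7 to glycogen synthase. It read -6.23, -5.45 and -4.57 on untreated IRE1 arrays and -7.69, -5.97 and -5.84 with DTT, so that the 2 groups overlapped. The fall of 1.08 had an adjusted p of 0.0360 (change -1.08 ± 0.44) and was not called with E1A scaling (-0.30, adjusted p = 0.436), in a fit of the compared groups alone (adjusted p = 0.120), or without replicate 1 with DTT (-0.49, adjusted p = 0.292), replicate 2 untreated (-1.10, adjusted p = 0.0660) or replicate 3 untreated (-0.66, adjusted p = 0.213). In ΔLD cells the change was -0.96 ± 0.44 (adjusted p = 0.0638). With the slide as a block, as the pairing of these arrays allows, that change was called (adjusted p = 0.0452).

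GPH1 encodes glycogen phosphorylase, which releases glucose 1-phosphate from glycogen. Its levels were -2.17, -2.0 and -1.48 on untreated and -2.93, -2.18 and -1.96 on DTT-treated IRE1 arrays, and -1.65, -1.65 and -1.54 against -1.60, -1.13 and -0.92 in ΔLD cells. The groups overlapped in both strains. Neither the change of -0.47 ± 0.29 (adjusted p = 0.158) nor that of 0.40 ± 0.29 (adjusted p = 0.244) was called. With E1A scaling the change in IRE1 cells was 0.31 (adjusted p = 0.314), below the median of all genes on that scale, and that in ΔLD cells was 0.72 and called (adjusted p = 0.0331), above it. The count called higher with DTT in ΔLD cells was then 9, with GSY1, GSY2 (0.75, adjusted p = 0.0145) and GPH1 added. Of all 6209 genes, 2476 were called higher in ΔLD cells on that scale.

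**Figure D2:**
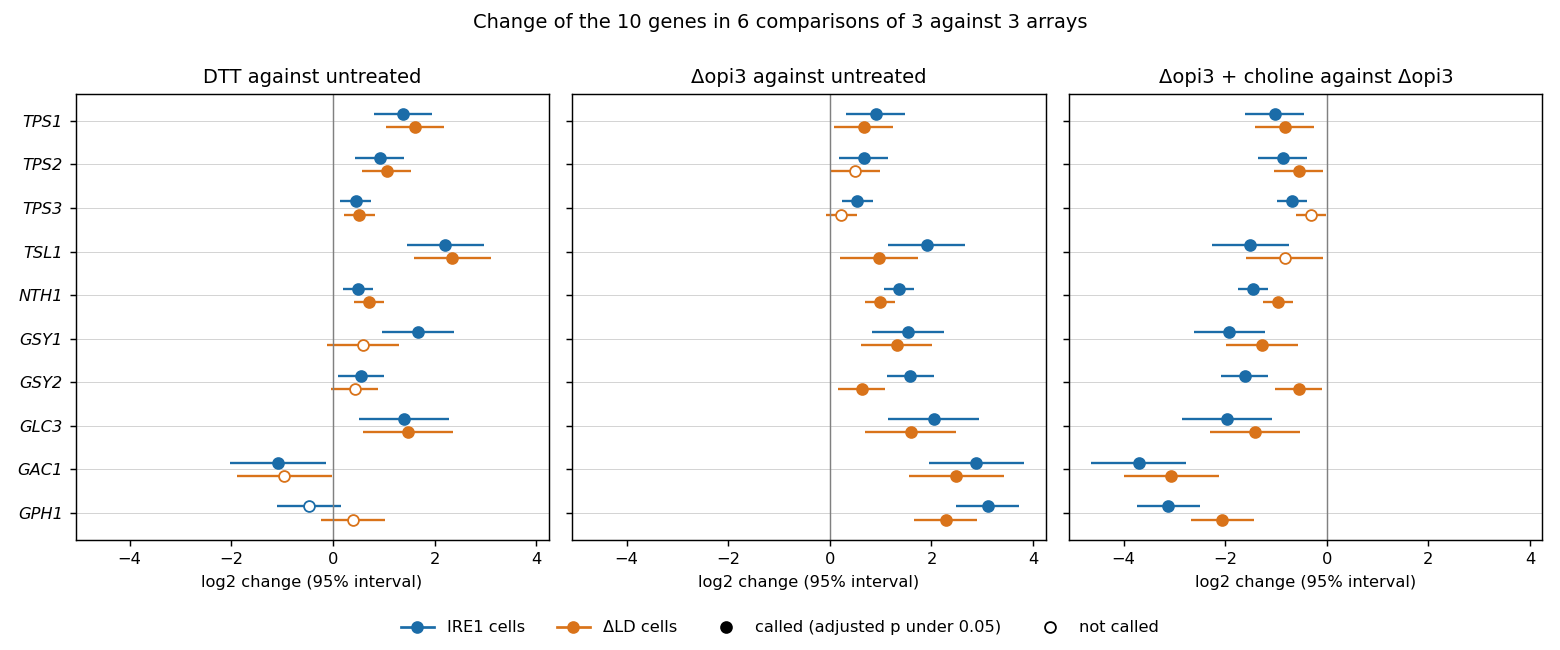
Log2 changes of the 10 genes (x axis; bars, 95% intervals from the limma fit, not adjusted for the number of genes) with DTT, in Δopi3 cells and with choline, in IRE1 cells (blue) and ΔLD cells (orange). Filled points were called. GAC1 and GPH1 lie at -1.08 to 0.40 with DTT and at 2.28 to 3.11 in Δopi3 cells.

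Arrays labelled Δopi3 had higher mean levels of all 10 genes than untreated arrays, with the largest changes in the glycogen genes GPH1 and GAC1. In IRE1 cells 10 of 10 genes were called higher, against 32.2% of all genes, and in ΔLD cells 8 of 10, against 29.2%. The median change was 1.56 and 0.97, beside -0.02 and 0.00 for all genes. This comparison and the DTT comparison share their untreated arrays. Without the 3 arrays with OPI3 above 10%, 10 of 10 were called higher in both strains. In each Δopi3 group without choline the array left out was the lowest for all 10 genes, so its removal raises every change. The share of all genes called in that fit is not given here, so this count adds no separate support.

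GPH1 went from the untreated levels given above to 1.84, 1.36 and 0.48 in IRE1 Δopi3 cells and to 0.79, 0.74 and 0.47 in ΔLD Δopi3 cells. The lowest Δopi3 array lay well above the highest untreated array in each strain. The rise was 3.11 ± 0.29 (8.62-fold, adjusted p = 3.62e-08) in IRE1 cells and 2.28 ± 0.29 (4.86-fold, adjusted p = 3.55e-06) in ΔLD cells. A second probe on the array, for the reading frame YPR160W-A, changed by 2.89 (adjusted p = 2.04e-06) and 2.21 (adjusted p = 7.00e-05). The authors' deposited table lists GPH1 at a log2 value of 3.10 for Δopi3 IRE1 cells, on a line that carries the identifier of that second probe and with no reference group named. The value itself is nearer to that of the GPH1 probe (3.11) than to that of YPR160W-A (2.89). For DTT-treated IRE1 cells it is -0.48, beside -0.47 for the GPH1 probe and -0.13 for YPR160W-A.

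GAC1 rose to -2.35, -2.54 and -2.72 in IRE1 Δopi3 cells and, from untreated levels of -5.49, -5.65 and -4.70, to -2.54, -2.91 and -2.93 in ΔLD Δopi3 cells. The Δopi3 arrays of GAC1 were close together (SD 0.19 and 0.22), and none came near the untreated arrays. The changes were 2.88 ± 0.44 (7.38-fold, adjusted p = 1.57e-05) and 2.49 ± 0.44 (5.60-fold, adjusted p = 0.000125). In the authors' deposited table GAC1 stands at 2.88 for Δopi3 IRE1 cells.

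Both glycogen synthase genes and the branching enzyme gene rose too. GSY2 levels were -1.89, -1.84 and -1.49 untreated and 0.28, 0.03 and -0.80 in Δopi3 IRE1 cells, and -1.42, -1.61 and -1.52 against -0.86, -0.73 and -1.09 in ΔLD cells. The GSY2 rise was 1.58 ± 0.22 (2.99-fold, adjusted p = 4.60e-06) and 0.63 ± 0.22 (1.54-fold, adjusted p = 0.0201). GSY1 rose by 1.54 ± 0.33 (adjusted p = 0.000471) and 1.31 ± 0.33 (adjusted p = 0.00260), and GLC3 by 2.04 ± 0.42 (4.11-fold, adjusted p = 0.000308) and 1.59 ± 0.42 (3.01-fold, adjusted p = 0.00362).

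Trehalose genes rose by less on these arrays than GPH1 or GAC1. NTH1 read -0.65, -0.65 and -0.40 untreated and 1.1, 0.87 and 0.43 in IRE1 Δopi3 cells, and -0.59, -0.69 and -0.43 against 0.55, 0.43 and 0.24 in ΔLD cells. The trehalase gene thus rose without overlap, by 1.36 ± 0.14 (2.57-fold, adjusted p = 1.01e-07) and 0.98 ± 0.14 (1.97-fold, adjusted p = 1.07e-05). TSL1 rose by 1.91 ± 0.36 (adjusted p = 0.000131) and 0.97 ± 0.36 (adjusted p = 0.0284).

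TPS1 read 1.44, 0.90 and -0.19 on the IRE1 Δopi3 arrays, the last of them within the untreated range, and 0.61, 0.63 and 0.24 on the ΔLD Δopi3 arrays. It rose by 0.90 ± 0.27 (adjusted p = 0.00663) and 0.66 ± 0.27 (adjusted p = 0.0441). TPS2 rose by 0.67 ± 0.23 (adjusted p = 0.0150) and TPS3 by 0.54 ± 0.14 (adjusted p = 0.00242) in IRE1 cells, and in ΔLD cells they changed by 0.50 (adjusted p = 0.0697) and 0.23 (adjusted p = 0.185) without a call. The calls of TPS1 and TPS2 in IRE1 cells depended on a single array, and that of TPS3 held without any 1 array. Without replicate 1 of the IRE1 Δopi3 group the TPS1 change was 0.54 (adjusted p = 0.0663) and that of TPS2 0.38 (adjusted p = 0.132). Leaving out 1 array at a time, the count in ΔLD cells ran from 5 to 8, and the calls that were lost were those of TPS1 (5 of 6 arrays), TSL1 (4 of 6) and GSY2 (3 of 6).

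Within a Δopi3 group the same array was the lowest for all 10 genes. In IRE1 Δopi3 cells replicate 1, with OPI3 below background, was the highest array for all 10 genes, and replicate 3, with OPI3 at 31.0%, was the lowest for all 10. In ΔLD Δopi3 cells replicate 3, with OPI3 at 23.2%, was again the lowest for all 10. With choline, replicate 1 was the highest array for 9 genes in IRE1 and 10 in ΔLD cells, and replicate 3 the lowest for 7 and 9, with OPI3 at 11.3% on the IRE1 array and below background on the ΔLD array. The median of the 10 genes above the untreated mean was 2.13, 1.65 and 0.89 on replicates 1, 2 and 3 of IRE1 cells and 1.14, 1.01 and 0.76 in ΔLD cells. The same array was lowest for 79.0% of the 1987 other genes called higher in Δopi3 IRE1 cells and for 67.8% of the 1803 others in ΔLD cells, so this order was not limited to storage carbohydrate genes. The part of the OPI3 signal in the spread between arrays was not tested.

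**Figure D3:**
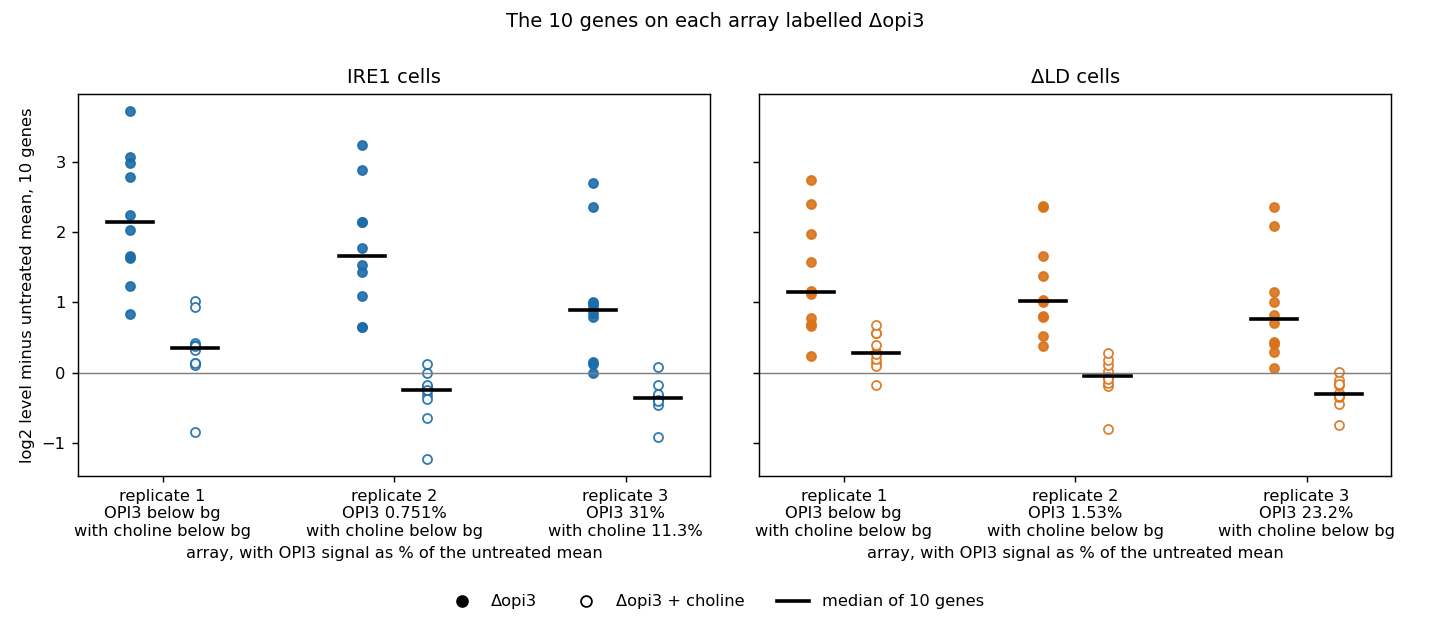
Level of each of the 10 genes minus its untreated mean (y axis, log2) on the 12 arrays labelled Δopi3, without choline (filled) and with choline (open), by replicate (x axis, with OPI3 signal as a percentage of the untreated mean). Medians (bars) are 2.13, 1.65 and 0.89 in IRE1 cells and 1.14, 1.01 and 0.76 in ΔLD cells without choline, and lie between -0.36 and 0.35 with it.

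Choline lowered all 10 genes in Δopi3 IRE1 cells and 8 of them in Δopi3 ΔLD cells, to levels at which none was called different from untreated cells. Against Δopi3 cells without choline, 10 of 10 genes were called lower in IRE1 cells, against 36.3% of all genes, and 8 of 10 in ΔLD cells, against 32.1%. These comparisons share the Δopi3 arrays with those just given. Without the arrays with OPI3 above 10%, 10 of 10 were called lower in both strains. In the groups without choline the arrays left out were the lowest for all 10 genes, so their removal enlarges the falls. Over 8 settings other than leaving out 1 array or slide, the count in ΔLD cells ran from 6 to 10. With the slide as a block, which the pairing of these arrays allows, the count in ΔLD cells was 10, with TPS3 at an adjusted p of 0.0221 and TSL1 at 0.0385 (0.0693 and 0.0530 without the block).

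GAC1 fell to -6.27, -6.65 and -5.80 in IRE1 cells and to -5.45, -6.08 and -6.03 in ΔLD cells, and GPH1 to -1.50, -1.89 and -2.29 and to -1.23, -1.33 and -1.60. All of these lay below every Δopi3 array without choline. The GAC1 change was -3.70 ± 0.44 (adjusted p = 7.27e-07) and -3.06 ± 0.44 (adjusted p = 1.40e-05), and the GPH1 change -3.12 ± 0.29 (adjusted p = 3.02e-08) and -2.05 ± 0.29 (adjusted p = 1.24e-05). GLC3 changed by -1.97 ± 0.42 and -1.42 ± 0.42, GSY1 by -1.92 ± 0.33 and -1.27 ± 0.33, and NTH1 by -1.46 ± 0.14 and -0.97 ± 0.14, all called. At the lower end TPS2 changed by -0.87 and -0.56, both called, and TPS3 by -0.69 (called) and -0.31 (not called). In IRE1 cells the arrays of TPS1, TPS2 and TSL1 overlapped between the groups. Leaving out 1 array at a time, the count stayed at 10 in IRE1 cells and ran from 5 to 10 in ΔLD cells, lowest without replicate 3 of the choline group. The ΔLD calls of GSY2 and TPS2 were each lost without any 1 of 4 of 6 arrays and that of TPS1 without 1 of 6. Without slide 2 the count in IRE1 cells was 7.

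Δopi3 cells with choline were then set against untreated cells. Limma called 0 of the 10 genes in either strain, where 2.22% of all genes were called in IRE1 cells and 0.515% in ΔLD cells. No gene of the 10 reached an unadjusted p under 0.05 in either strain, against 17% and 6.27% of all genes. The changes ran from -0.82 (GAC1) to 0.40 (TSL1) in IRE1 cells and from -0.58 (GAC1) to 0.23 (GPH1) in ΔLD cells. The 95% interval for GAC1 in IRE1 cells reached from -1.76 to 0.12, so a lower level than in untreated cells could not be told apart from none.

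Because the 2 stresses were set against the same untreated arrays, Δopi3 and DTT arrays were also compared directly, in a comparison added after the data had been seen. The phosphorylase and phosphatase subunit genes separated them in both strains. In IRE1 cells 4 of 10 genes were called higher in Δopi3 cells (GAC1, GPH1, GSY2 and NTH1), against 25.2% of all genes, and none lower, against 33.6%. In ΔLD cells 2 were called higher (GAC1 and GPH1), against 30.3%, and 3 lower (TPS1, TPS2 and TSL1), against 31.9%.

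GAC1 was higher in Δopi3 than in DTT-treated cells by 3.97 ± 0.44 (15.6-fold, adjusted p = 3.97e-07) in IRE1 and by 3.44 ± 0.44 (10.9-fold, adjusted p = 2.09e-06) in ΔLD cells. GPH1 was higher by 3.58 ± 0.29 (12-fold, adjusted p = 6.62e-09) and 1.89 ± 0.29 (3.70-fold, adjusted p = 1.98e-05). The lowest Δopi3 array of each gene lay above the highest DTT array in both strains. In ΔLD cells the DTT arrays were the higher ones for TSL1 (Δopi3 minus DTT -1.38 ± 0.36, adjusted p = 0.00263), TPS1 (-0.95 ± 0.27, adjusted p = 0.00536) and TPS2 (-0.56 ± 0.23, adjusted p = 0.0410), without overlap of the arrays. The TPS2 call was lost without any 1 of 4 of 6 arrays (adjusted p up to 0.184). In IRE1 cells the same differences were -0.30, -0.48 and -0.25 and none was called.

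The scale and the arrays with OPI3 signal bear on the smaller of these differences. With E1A scaling GAC1 and GPH1 were still called higher in both strains, GSY2 and NTH1 were no longer called in IRE1 cells (0.37, adjusted p = 0.189, and 0.22, adjusted p = 0.400), and 5 genes were called lower there, TPS3 among them (-0.56, adjusted p = 0.0332). Without the arrays with OPI3 above 10%, 6 genes were called higher in IRE1 cells, with GLC3 (1.17, adjusted p = 0.0133) and TPS3 (0.30, adjusted p = 0.0320) added. In ΔLD cells 4 were then called higher, with GSY1 (0.88, adjusted p = 0.0214) and NTH1 (0.36, adjusted p = 0.0187) added, and TPS2 was no longer called lower (-0.46, adjusted p = 0.0858). E1A scaling moves all genes of an array together. The shares of all genes called on that scale and without those arrays are not given here. None of these counts can therefore be read as particular to these genes.

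**Figure D4:**
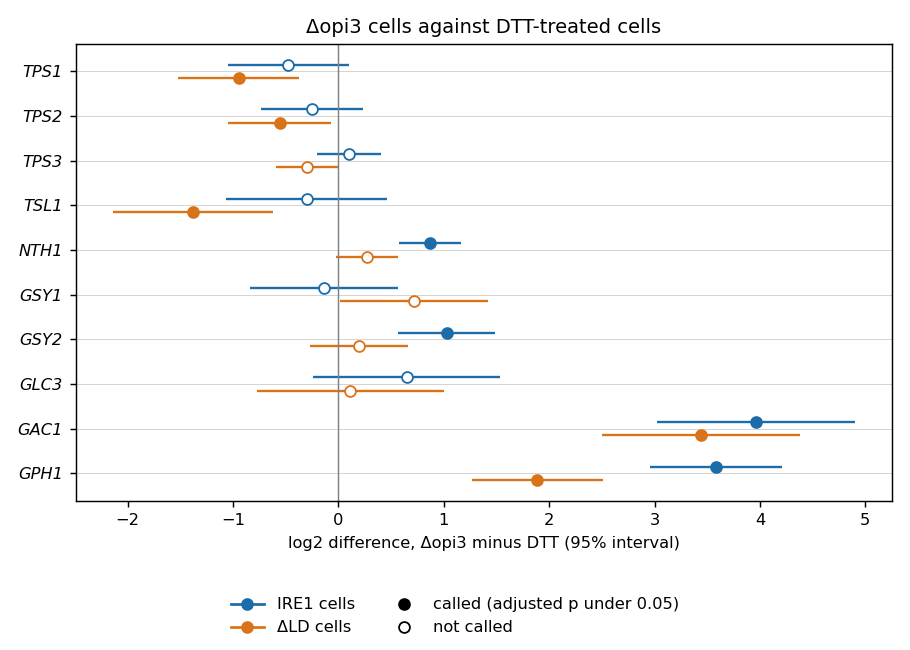
Log2 difference between Δopi3 and DTT-treated cells (x axis; bars, 95% intervals, not adjusted for the number of genes) for the 10 genes in IRE1 cells (blue) and ΔLD cells (orange), filled where called. GAC1 and GPH1 stand at 1.89 to 3.97, and TPS1, TPS2 and TSL1 lie below 0 in both strains, with calls in ΔLD cells.

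The next comparison was between cells with the 2 forms of Ire1. The form and the IRE1 probe's signal differ together between the strains and cannot be told apart. In untreated cells limma called 0 of the 10 genes between the strains, against 0.789% of all genes, and none reached an unadjusted p under 0.05, against 5.52%. The differences, ΔLD minus IRE1, ran from -0.10 (GSY1) to 0.35 (TSL1). With choline the count was also 0, against 3.14% of all genes, with no unadjusted p under 0.05, against 13.9%, and differences from -0.03 (TPS1) to 0.51 (GPH1).

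Under DTT 2 glycogen genes differed between the strains, in opposite directions. GPH1 was higher in ΔLD cells on every array, by 1.14 ± 0.29 (2.20-fold, adjusted p = 0.00806), and GSY1 was lower on every array, by 1.18 (change -1.18 ± 0.33, adjusted p = 0.0143). That is 1 gene called higher, against 7.47% of all genes, and 1 lower, against 13.2%. The 2 calls of 10 genes lie near the 20.7% of all genes called in either direction, so their number is not particular to these genes. The GPH1 call was lost without replicate 1 of the DTT-treated IRE1 group (0.85, adjusted p = 0.0640). The YPR160W-A probe was higher in ΔLD cells by 0.60 without a call (adjusted p = 0.289). The GSY1 call was lost without replicate 2 of either DTT group (-1.12, adjusted p = 0.0560, and -1.01, adjusted p = 0.0767). When the DTT effects themselves were compared, limma called 0 of 10 genes, against 8.31% of all genes, with 1 gene at an unadjusted p under 0.05 (GSY1), against 18.1%. The difference of effects was -1.08 ± 0.47 for GSY1 (adjusted p = 0.211) and 0.87 ± 0.42 for GPH1 (adjusted p = 0.275). With E1A scaling the GSY1 difference of effects was called (-1.54, adjusted p = 0.0164), as it was in a fit of the compared groups alone (adjusted p = 0.0200).

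Among Δopi3 arrays GSY2 was the 1 gene called lower in ΔLD cells (-0.73 ± 0.22, adjusted p = 0.0268), against 9.23% of all genes, and its arrays overlapped between the strains. This call was lost with E1A scaling (-0.59, adjusted p = 0.398) and without any 1 of 4 arrays of these groups. With the slide as a block NTH1 was called as well (-0.39, adjusted p = 0.0384). Without the arrays with OPI3 above 10%, 5 genes were called lower in ΔLD cells: GSY2 (-0.95, adjusted p = 0.00204), TSL1 (-1.02, adjusted p = 0.0254), GPH1 (-0.83, adjusted p = 0.0452), NTH1 (-0.49, adjusted p = 0.0142) and TPS3 (-0.41, adjusted p = 0.0248). The share of all genes called in that fit is not given here, so the rise from 1 to 5 cannot be read as particular to these genes.

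The effects of Δopi3 were compared between the strains in the same way. Limma called 0 of 10 genes, against 4.11% of all genes, with 1 at an unadjusted p under 0.05 (GSY2), against 16.8%. The difference for GSY2 was -0.95 ± 0.31 (adjusted p = 0.0946) and for TSL1 -0.94 ± 0.51 (adjusted p = 0.388). Without the arrays with OPI3 above 10% both were called, at -1.18 (adjusted p = 0.00637) and -1.37 (adjusted p = 0.0423). Without replicate 3 of the IRE1 Δopi3 group alone, 5 genes were called, among them GSY2 (-1.27, adjusted p = 0.00244), TSL1 (-1.50, adjusted p = 0.0154) and GPH1 (-1.20, adjusted p = 0.0343). That array was the lowest of its group for all 10 genes, so leaving it out by itself makes each difference more negative. The shares of all genes called without these arrays are not given here, so these calls cannot be read as particular to these genes. For the effect of choline, GSY2 was the 1 gene called (1.06 ± 0.31, adjusted p = 0.0448), against 4.78% of all genes called higher, and the GPH1 difference of 1.06 ± 0.42 was not (adjusted p = 0.138).

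The levels of the 10 genes over the 8 groups were alike for some and not for others. The correlation of a gene's 8 group means with the mean of the other 9 genes was 0.995 for NTH1, 0.966 for GLC3 and 0.952 for GSY2, and 0.559 for GAC1, the lowest. Over the 45 pairs of genes, r ran from 0.05 to 0.992. These correlations rest on 8 means that share arrays and scaling. The profile of the 10 genes together was most like those of TAP42 (r = 0.998), KTR2 (0.995), SPS19 (0.9945), BCY1 (0.993) and SNT2 (0.993) among 5893 other genes above background on all arrays. BCY1 encodes the regulatory subunit of protein kinase A, and its group means ran over a narrow range, from -0.27 to 0.40 around its own mean.

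Other genes of the 2 pathways were read from a list of 15. With DTT 10 were called higher in IRE1 cells and 11 in ΔLD cells, against 39.4% and 38.1% of all genes, none lower. On Δopi3 arrays 9 and 10 were called higher, against 32.2% and 29.2%, and none lower, and with choline 11 and 10 were called lower, against 36.3% and 32.1%, and none higher. ATH1, the acid trehalase, rose by 1.57 ± 0.21 with DTT in ΔLD cells (adjusted p = 3.57e-06). IGD1, an inhibitor of glycogen debranching, rose by 1.44 with DTT and 1.98 in Δopi3 IRE1 cells, and GIP2, a relative of GAC1 that binds the phosphatase Glc7, rose by 1.48 in Δopi3 ΔLD cells. With choline IGD1 fell by 2.17 in IRE1 cells and by 1.47 in ΔLD cells.

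SGA1, a glucoamylase gene known for its expression in sporulation, had the largest called change on that list in 5 of the 6 effects, the exception being DTT in ΔLD cells, where ATH1 rose more. Its mean level was -4.45 ± 0.19 untreated, -2.42 ± 0.15 with DTT, -1.55 ± 0.28 in Δopi3 and -4.56 ± 0.14 with choline in IRE1 cells, against -4.14 ± 0.11, -2.83 ± 0.14, -2.31 ± 0.27 and -3.84 ± 0.11 in ΔLD cells. It rose by 2.04 ± 0.14 with DTT and by 2.90 ± 0.14 in Δopi3 in IRE1 cells, and by 1.31 ± 0.14 and 1.83 ± 0.14 in ΔLD cells. Choline changed it by -3.02 ± 0.14 and -1.54 ± 0.14. All 6 changes were called, and so were the differences between the strains in each of the 3 effects (-0.73 ± 0.20, adjusted p = 0.0274, for DTT; -1.07 ± 0.20, adjusted p = 0.00336, for Δopi3; 1.48 ± 0.20, adjusted p = 0.000111, for choline). The difference for DTT lost its call without any 1 of 7 of 12 arrays (adjusted p up to 0.0836), and all 3 lost theirs without slide 2.

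The supply of glucose phosphates and UDP-glucose was followed with 6 genes. With DTT 4 were called higher in both strains, against 39.4% of all genes in IRE1 cells and 38.1% in ΔLD cells. The largest rises were those of the glucokinase gene GLK1 (2.38 ± 0.31 and 2.14 ± 0.31) and the phosphoglucomutase gene PGM2 (1.55 ± 0.36 and 1.5 ± 0.36). HXK2, a hexokinase gene, was called lower in ΔLD cells (-0.25 ± 0.11, adjusted p = 0.0450), but stood at 0.23 (adjusted p = 0.0138) with quantile normalization and at 0.07 with E1A scaling. In Δopi3 cells 3 were called higher in IRE1 cells, against 32.2% of all genes, and 1 in ΔLD cells, against 29.2%. GLK1 rose by 2.05 ± 0.31 and 1.23 ± 0.31, PGM2 by 1.72 ± 0.36 in IRE1 cells, and PGM1, the other phosphoglucomutase gene, was called lower at -0.24 and -0.23, each call lost without any 1 of 2 of 6 arrays (-0.15, adjusted p = 0.106, without replicate 1 of the IRE1 Δopi3 group). With choline GLK1 changed by -1.99 and -1.38 and PGM1 by 0.21 and 0.32, all called, and PGM2 fell by 1.64 in IRE1 cells. The PGM1 call with choline in IRE1 cells was lost without any 1 of 3 of 6 arrays (0.12, adjusted p = 0.200, without replicate 1 of the Δopi3 group).

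The regulators followed were 10 genes of stress and protein kinase A signalling. RIM15, a kinase of quiescence entry, rose by 1.13 ± 0.09 and 1.08 ± 0.09 in Δopi3 cells, and YAK1, a kinase opposed to protein kinase A, rose by 0.996 ± 0.15 and 0.91 ± 0.15 there and by 0.59 ± 0.15 with DTT in ΔLD cells. TPK3, a catalytic subunit of protein kinase A, was called lower in Δopi3 cells (-0.56 and -0.43), each call lost in 1 of 17 alternative settings. With DTT, MSN2, a stress transcription factor gene, rose by 0.64 ± 0.09 in IRE1 cells, and TPK2, also a catalytic subunit gene of that kinase, by 0.57 ± 0.18 in IRE1 and 0.71 ± 0.18 in ΔLD cells. MSN4 was called lower with DTT in both strains (-0.65 ± 0.12 in each), although in IRE1 cells it stood at 0.13 with E1A scaling (adjusted p = 0.615). In ΔLD cells its call was lost in 1 of 15 alternative settings (adjusted p up to 0.248 in limma). RAS2, an activator of the kinase pathway, was called lower in Δopi3 cells (-0.36 and -0.55), with the call in IRE1 cells lost in 3 of 17 alternative settings. In all, 5 and 4 of the 10 were called higher with DTT, against 39.4% and 38.1% of all genes, and 1 and 1 lower, against 30.1% and 28.3%. In Δopi3 cells 5 and 4 were called higher, against 32.2% and 29.2%, and 3 and 4 lower, against 35.1% and 27.3%, so the shares lay near those of all genes. Choline changed RIM15 by -1.36 and -1.04, YAK1 by -1.42 and -1.19, TPK3 by 0.45 and 0.38 and RAS2 by 0.36 and 0.47, all called.

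The stress reporters CTT1 (catalase T), HSP12 (a small membrane-associated stress protein) and DDR2 (a multistress protein) were called in all 6 effects, 3 of 3 higher with DTT and in Δopi3 cells and 3 of 3 lower with choline. Of all genes, 39.4% in IRE1 and 38.1% in ΔLD cells were called higher with DTT. In Δopi3 cells 32.2% and 29.2% were called higher, and with choline 36.3% and 32.1% were called lower. CTT1 rose by 1.14 and 1.52 with DTT and by 1.25 and 1.02 in Δopi3 cells. HSP12 rose by 1.76 and 2.95 with DTT and by 3.49 and 2.57 in Δopi3 cells. DDR2 rose by 1.95 and 3.54, and by 3.12 and 3.38. With choline the changes were -1.19 and -0.96 for CTT1, -2.64 and -1.97 for HSP12, and -2.88 and -3.13 for DDR2, the first of each pair in IRE1 cells.

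**Figure D5:**
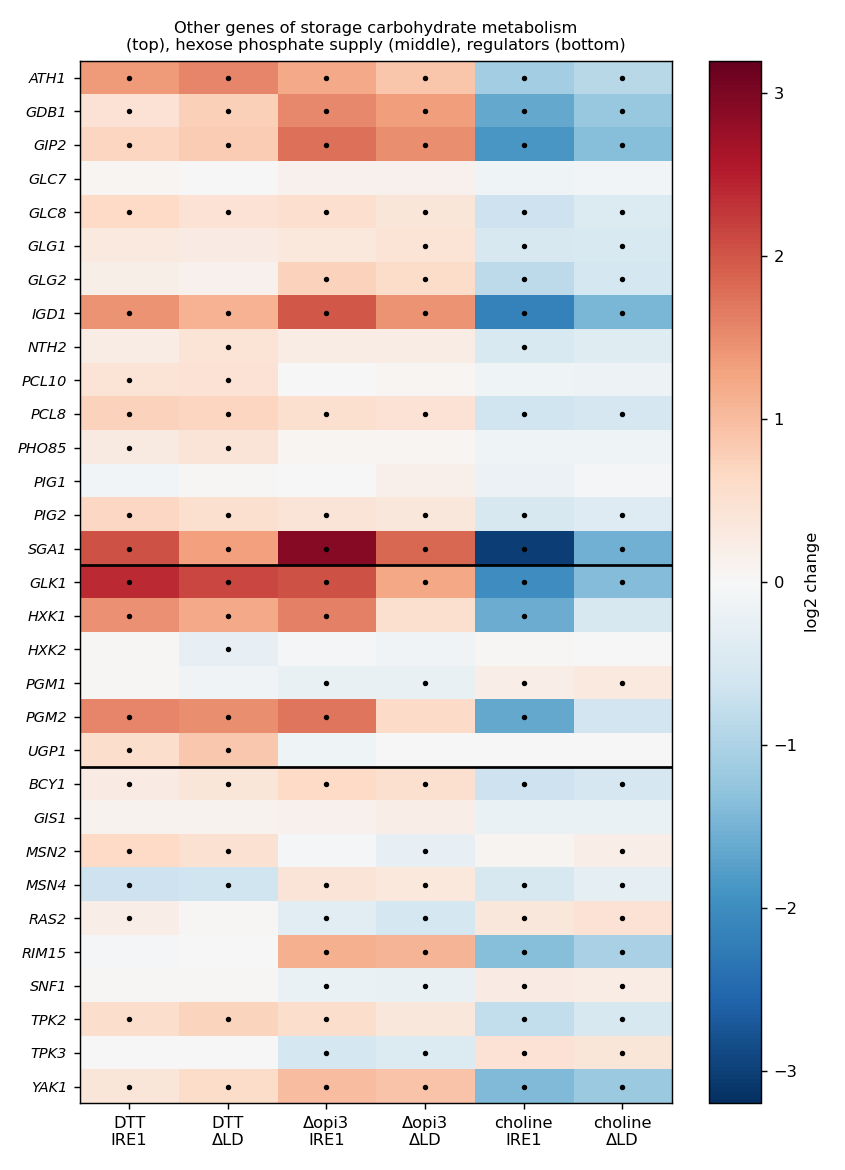
Log2 changes (colour) of the 15 other trehalose and glycogen genes (top), 6 genes of hexose phosphate supply (middle) and 10 regulators (bottom) with DTT, in Δopi3 cells and with choline, in IRE1 and ΔLD cells. Dots mark calls. SGA1 spans from 2.90 in Δopi3 to -3.02 with choline in IRE1 cells.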

How the data were processed

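Each array held total RNA of 1 sample labelled with Cy3. Per the file headers, the deposited files hold spot intensity from Agilent Feature Extraction 10.7.1.1, background-subtracted and spatially detrended within the array by the authors' software, with no scaling between arrays. The authors' deposited table of log2 values covers selected genes with no reference group named, and was used only for description. The names come from the array's design.

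Control spots and outlier spots were left out, log2 of the processed signal was taken minus the array's 75th percentile, and spots of a probe were averaged. A gene was kept when its probe was well above background on all 3 arrays of a group (6209 of 6576), which can favour genes that are high in 1 group. All 24 arrays entered a linear model with 8 group means (limma 3.58.1 in R 4.3.3), and p-values were adjusted over all kept genes with Benjamini-Hochberg. The number of arrays limits precision. The step was tested on simulated data with noise independent between arrays and a small share of genes changed. That test does not cover arrays that deviate together or responses as broad as those found here. The members and gene lists were chosen with earlier results of these data known. Named others are up to 2 called rises and 2 called falls of largest size per list and effect, plus NTH2 and 3 stress reporters.

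Replicate numbers name slides, and each slide held 1 array of every group. Same-numbered arrays deviated together (every correlation over 0.1) in 8 of 14 comparisons of groups, with correlations from 0.18 to 0.803 there, and for these the block is given where it changed a call. Alternatives were quantile normalization, E1A spike-in scaling, normexp on median signals (no mean signal was given), no filter, fewer groups, the block, and arrays or slides left out. No sequences were used here. One gene of the regulator list is not reported here.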

Additional observations from a re-analysis of the deposited data

Results flagged for a closer look

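The effect of choline on GSY2 differed between ΔLD and IRE1 cells by 1.06 ± 0.31 (adjusted p = 0.0448, limma), with the larger fall in IRE1 cells. The call was lost without any 1 of 9 of the 12 arrays involved. SGA1 differed between the strains in all 3 effects: by -0.73 for DTT, by -1.07 for Δopi3 and by 1.48 for choline, ΔLD minus IRE1. Each of these differences had the same sign on all 3 slides. The SGA1 call for DTT was lost without any 1 of 7 of the 12 arrays involved.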

How the results depend on the processing

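Counts are of the 10 genes called, and the share of all genes called can change with the setting too. Over 8 settings other than leaving out 1 array or slide, 6 to 10 were higher for Δopi3 and 6 to 10 lower for choline in ΔLD cells. In IRE1 cells these counts ran from 8 to 10 and from 9 to 10. With E1A scaling 9 were higher with DTT in ΔLD cells (6 with the 75th percentile), 2 were higher and 5 lower in Δopi3 against DTT in IRE1 cells (4 and 0 with the 75th percentile), 0 were lower with DTT in IRE1 cells, 1 (GSY1) had a lower DTT effect in ΔLD cells, and 0 differed between strains in Δopi3 or in the effect of choline. With the compared groups alone 0 were lower with DTT in IRE1 cells and 1 in ΔLD cells, 0 were lower in ΔLD against IRE1 Δopi3 cells, 1 had a lower DTT effect in ΔLD cells, 0 differed in the choline effect, and 4 were higher in Δopi3 against DTT in ΔLD cells. Normexp and quantile normalization gave 1 lower with DTT in ΔLD cells. The replicate block gave 1 there and 2 lower in ΔLD against IRE1 Δopi3 cells. It also brought adjusted p to 0.0427 for TPS2 in Δopi3 ΔLD cells, and to 0.0262 for TPS3 and 0.0379 for GSY1 in Δopi3 against DTT in ΔLD cells, where the numbers did not pair the arrays. Without the arrays with OPI3 above 10%, 5 were lower in ΔLD against IRE1 Δopi3 cells, 2 had a lower Δopi3 effect in ΔLD cells and 4 were higher in Δopi3 against DTT in ΔLD cells. Without all 5 arrays with OPI3 above background the last 2 counts were 1 and 4. That leaves 1 array in each Δopi3 group without choline, assumed to vary like the other groups.

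With 1 array or slide left out, counts ran from 4 to 8 higher and 0 to 1 lower with DTT in IRE1 cells, 0 to 1 lower with DTT in ΔLD cells, 3 to 9 higher for Δopi3 and 3 to 10 lower for choline in ΔLD cells. In IRE1 cells 7 to 10 were higher for Δopi3 and 7 to 10 lower for choline. Between the strains they ran from 0 to 1 in each direction with DTT, 0 to 6 lower in Δopi3 cells, 0 to 5 for the difference in the choline effect and 0 to 5 for that in the Δopi3 effect. For Δopi3 against DTT, 0 to 4 were lower in IRE1 cells and 1 to 3 in ΔLD cells. The lowest counts for DTT in IRE1 cells and for Δopi3 and choline in ΔLD cells came without slide 2.

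Some signs turned. With E1A scaling the Δopi3 against DTT change was -0.009 for GLC3 and -0.56 for TPS3 in IRE1 cells and -0.10 for NTH1 in ΔLD cells, and the DTT change was 0.31 for GPH1 and 0.13 for MSN4 in IRE1 cells and 0.070 for HXK2 in ΔLD cells (0.23 with quantile normalization). With 1 array or slide left out, GLC3 ran from -0.13 (without slide 1) to 1.4 for Δopi3 against DTT in IRE1 cells, and TPS3 from -0.047 (without replicate 1 of the Δopi3 group) to 0.32. E1A scaling sets arrays by spike-in signal, so it moves all genes of an array together. The cause of the other shifts was not tested. Normexp used the median signal, chosen after seeing the data.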
